A study of Mus musculus with 6 samples.

Results

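The genes described here are the mouse machinery of MHC class I antigen presentation, measured in the corneal epithelium of mice that lacked Rela and of wild-type mice. They were taken by symbol from the deposited gene table: H2-K1, H2-D1, B2m, Tap1, Tap2, Tapbp, Psmb8, Psmb9, Psmb10 and Nlrc5. These are 10 of 17866 rows of the table, and all 10 passed the filter on low counts. Bulk RNA-seq was made from the separated epithelium of corneas of C57BL/6 mice at 6 months of age. 3 libraries carried the genotype WT and 3 the genotype Rela-/- (KO). In the study's methods the mutants were Krt14-Cre; Rela f/f mice. The Krt14 promoter drives the deletion in stratified epithelia, including skin and oral mucosa as well as cornea, and it is not known to be active in leukocytes or in the stroma. Whether the WT mice carried the Cre or the floxed allele is not given in the sources used here, and no treatment was named for either group. The comparison asks how the epithelium differs once RelA, a subunit of canonical NF-κB, has been deleted from it.

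MHC class I molecules show peptides from inside a cell to CD8 T cells. Proteasomes cut proteins into peptides, the TAP transporter carries these into the endoplasmic reticulum, and tapasin holds an empty heavy chain and its light chain at the transporter until a peptide fits. The pathway is raised by interferons and NF-κB, and the transactivator NLRC5, which binds no DNA itself, acts on the promoters of class I genes through factors already seated there.

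The library totals lay between 20158404 and 20880347 estimated counts, so 3 counts were worth 0.144 to 0.149 CPM (counts per 1000000, scaled by TMM factors elsewhere in the text). Rela, the deleted gene, had 1871, 1844 and 1855 counts in WT against 318, 223 and 313 in KO, or 16.5% of the WT level. Krt12, the keratin of corneal epithelium, was at 36538 ± 1060 CPM in WT and 7121 ± 1363 in KO (SD, n = 3), 5 of 6 corneal markers fell, and 4 of 5 epidermal and 4 of 4 conjunctival markers rose, so the groups also differed in the markers of the epithelium itself. In bulk RNA, fewer cells of a type and less RNA per cell cannot be told apart. Across all 13305 genes tested, 62% were called different at an adjusted p of 0.05 by edgeR's quasi-likelihood test, 31.8% higher and 30.2% lower in KO, and 68.7% had KO libraries that did not overlap the WT libraries. The median log2 fold change of all these genes was 0.01.

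8 of the 10 genes lie in RefSeq's promoter table (GRCm38.p6), and 4 promoters are printed because they carry the shared and the differing motifs of the set. Each shows the 250 bases before the start site. Capitals mark matches to the κB motif (GGG and CC with any 5 bases between them) and, in B2m, also to the core of the interferon response element (GAAA and GAAA with any 2 bases between them), searched on both strands. H2-K1 has 2 start sites in the table, of which the more upstream is shown, at chr17:34000348-34000597 on the minus strand, H2-D1 at chr17:35262844-35263093 on the plus strand, B2m at chr2:122147437-122147686 on the plus strand, and Tap1 at chr17:34187306-34187555 on the plus strand.
H2-K1: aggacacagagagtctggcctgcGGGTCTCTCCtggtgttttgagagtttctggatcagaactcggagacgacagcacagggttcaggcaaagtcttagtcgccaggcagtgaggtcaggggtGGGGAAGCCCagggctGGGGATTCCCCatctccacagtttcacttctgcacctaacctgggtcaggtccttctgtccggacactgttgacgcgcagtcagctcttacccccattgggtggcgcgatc
H2-D1: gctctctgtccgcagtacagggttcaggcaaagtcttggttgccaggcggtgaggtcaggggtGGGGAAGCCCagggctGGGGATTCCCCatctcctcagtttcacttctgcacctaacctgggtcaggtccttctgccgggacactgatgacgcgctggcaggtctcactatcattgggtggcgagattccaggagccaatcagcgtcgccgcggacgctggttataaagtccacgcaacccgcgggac
B2m: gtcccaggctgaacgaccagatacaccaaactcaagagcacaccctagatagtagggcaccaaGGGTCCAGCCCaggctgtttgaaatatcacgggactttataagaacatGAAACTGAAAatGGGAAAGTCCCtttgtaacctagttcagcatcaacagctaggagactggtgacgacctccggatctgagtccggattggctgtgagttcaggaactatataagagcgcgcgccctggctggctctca
Tap1: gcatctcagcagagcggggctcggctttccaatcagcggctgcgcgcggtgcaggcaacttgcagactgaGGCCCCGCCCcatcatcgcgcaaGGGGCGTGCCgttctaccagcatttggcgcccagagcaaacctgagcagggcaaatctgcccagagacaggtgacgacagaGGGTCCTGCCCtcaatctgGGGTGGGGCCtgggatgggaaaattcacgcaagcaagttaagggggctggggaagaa

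The upstream sequences of H2-K1 and H2-D1 matched at 161 of 177 aligned positions (91%). Both hold the full palindrome GGGGATTCCCC, from -111 to -101 in H2-K1 and from -171 to -161 in H2-D1, counted from the start site as 0. That palindrome, added to the search after the sequences had been seen, occurred in 10 of 32851 RefSeq windows of 300 bases (0.0304%), while the loose κB motif occurred in 50.8% of windows and in 5 of the 8 members. The interferon response core was found in 3.44% of windows and, among the members, in that of B2m, from -139 to -130, next to a κB match from -127 to -118. Only the exact form given above was searched, so variants of this element in the other members would not be found. The GAS motif TTCNNNGAA, known from interferon gamma responses, was found in 8.3% of windows and in Psmb8. The core TGACG of the cyclic AMP response element, bound by CREB and ATF factors, was found in 5 of 8 members and in 20.8% of windows, and its full form TGACGTCA in none of the 8 and in 1.79% of windows. CCAAT, the motif of NF-Y, was found in 6 of 8 members and in 37.4% of windows. Tap1 and Psmb9 are transcribed away from each other from start sites 226 bases apart, so their windows share 275 of 300 bases and their matches are not separate evidence. A match is a description of letters, and binding was not measured in these data.

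**Figure D1:**
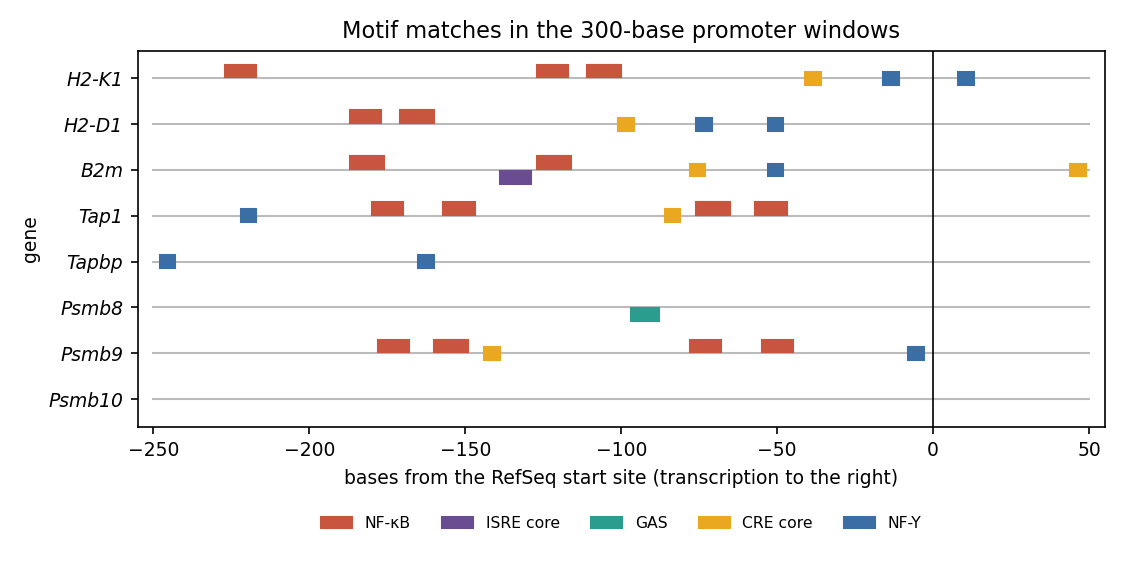
Matches to 5 motifs in the promoter windows of the 8 members in RefSeq's table (H2-K1 by its more upstream start site), with the distance from the start site in bases on the x axis and genes on the y axis. The κB matches (red) lie in H2-K1, H2-D1, B2m, Tap1 and Psmb9, and Tapbp, Psmb8 and Psmb10 have no κB match. The interferon response core (purple), searched only in its exact form, lies in B2m.

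The class I presentation genes did not move together. 3 rose in KO (H2-K1, B2m and Nlrc5), 4 fell (Tap1, Tap2, Tapbp and Psmb9) and 3 did not pass the test (H2-D1, Psmb8 and Psmb10). The share called, 7 of 10, is to be read against 62% of all tested genes, and the 8 of 10 members whose groups did not overlap against 68.7%. The study called a gene when its fold change reached 2 and its adjusted p was no more than 0.001. By that rule 19.8% of all genes passed, 11.6% higher and 8.24% lower, and among the members B2m did. The median log2 fold change of the 10 members was -0.18. Of those called, a heavy chain, the light chain and the transactivator were higher, and the transporter subunits, tapasin and an immunoproteasome subunit were lower.

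**Figure D2:**
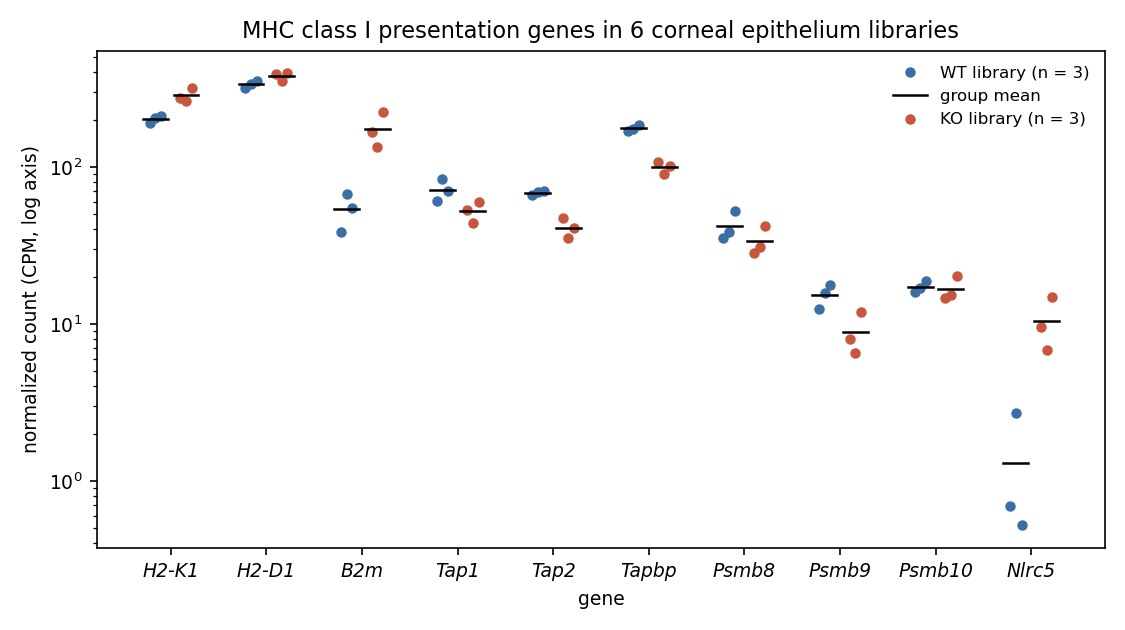
Normalized counts of the 10 members in each library (CPM, log axis), WT in blue and KO in red with the group mean as a bar, n = 3 per group. H2-K1, B2m and Nlrc5 lie wholly above WT in KO, and Tapbp, Tap2 and Psmb9 wholly below. H2-D1 (higher in KO) and Tap1 (lower) only just part, and Psmb8 and Psmb10 overlap.

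H2-K1 encodes the classical heavy chain H-2K and lies at chr17:33996017-34000347 on the minus strand (GENCODE, GRCm38). It had 4159, 4386 and 4442 estimated counts in WT against 5478, 5255 and 6398 in KO. All 3 KO libraries lay above all 3 WT libraries, and KO replicate 3 was the highest. The mean was 202 ± 10.1 CPM in WT and 287 ± 28.7 in KO, which is a log2 fold change of 0.51 (SE 0.104, edgeR adjusted p = 0.0029).

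H2-D1, the classical heavy chain H-2D at chr17:35262730-35267499 on the plus strand, gave 6995, 7275 and 7403 counts in WT against 7712, 7019 and 7923 in KO. After scaling, the lowest KO library, at 352 CPM, was close to the highest WT library, at 351. The log2 fold change was 0.17 (SE 0.0955, edgeR adjusted p = 0.148). The ratio of H2-K1 to H2-D1 within a library, taken on FPKM (fragments per kilobase of transcript and 1000000 fragments), was 0.616, 0.626 and 0.620 in WT and 0.732, 0.773 and 0.841 in KO. This ratio was therefore nearly constant over the WT libraries and higher in every KO library, by 0.33 on the log2 scale (two-sided exact permutation p = 0.1, adjusted over 5 ratios 0.1). With 3 libraries against 3, no exact test can go below 0.1.

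Reads shared between heavy chain genes bear on these values. RSEM divides a read that fits several genes among them, and H2-K1 and H2-D1 had estimated counts that were not whole in all 6 libraries. The table's H2-K1 row also joins 17 transcripts, and its span is far wider than that of the annotated gene. Summing the 19 MHC-encoded class I heavy chain rows, an alternative chosen after the data had been seen, gave a log2 fold change of 0.28 (SE 0.104, edgeR adjusted p = 0.0439). H2-K1 and H2-D1 together held 78.1%, 77.7% and 78.2% of those counts in WT and 78.6%, 79.6% and 80.4% in KO, so the split between classical and other heavy chains moved by a few percentage points while the sum itself rose.

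B2m encodes beta-2-microglobulin, the light chain shared by class I molecules, and is at chr2:122147686-122153083 on the plus strand, apart from the MHC. It had 843, 1454 and 1163 counts in WT against 3303, 2700 and 4491 in KO. Each KO library held more than the highest WT library, with KO replicate 3 again at the top. The level was 53.8 ± 14.6 CPM in WT and 175 ± 44.7 in KO, a 3.26-fold difference (log2 fold change 1.71, SE 0.235, edgeR adjusted p = 0.000349). Under a correction that removes any trend of a library's counts with gene length, the log2 fold change was 1.19 (edgeR adjusted p = 0.00233). There, and without WT replicate 1, WT replicate 3, KO replicate 1 or KO replicate 3, the adjusted p was above the study's limit of 0.001. The B2m counts were whole in all 6 libraries, so no division of its reads shows in them.

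The level of the light chain was also set against that of the classical heavy chains within each library. B2m relative to the sum of H2-K1 and H2-D1, on FPKM, was 0.154, 0.254 and 0.201 in WT and 0.512, 0.449 and 0.637 in KO. The ratio was higher in every KO library, 2.65-fold on average (two-sided exact permutation p = 0.1, adjusted 0.1).

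Tap1 and Tap2 encode the paired subunits of the peptide transporter and lie in the MHC class II region with the immunoproteasome genes. Tap1, at chr17:34187553-34197225 on the plus strand, had 1320, 1802 and 1477 counts in WT against 1045, 876 and 1207 in KO. The groups only just parted, with KO replicate 3 at 60.1 CPM and WT replicate 1 at 60.5. The log2 fold change was -0.45 (SE 0.152, edgeR adjusted p = 0.0303), and the call was lost when WT replicate 2 (-0.31, adjusted p = 0.108), WT replicate 3, KO replicate 1 or KO replicate 2 was left out.

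Tap2, at chr17:34203527-34216321 on the plus strand, had 1452, 1483 and 1493 counts in WT against 937, 703 and 814 in KO. The WT libraries were nearly equal and every KO library was well below them. Its level fell from 68.7 ± 2.12 to 41.1 ± 6.13 CPM, to 59.8% of WT (log2 fold change -0.74, SE 0.116, edgeR adjusted p = 0.000708).

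Tapbp, which encodes tapasin, is at chr17:33915899-33929292 on the plus strand. It had 3712, 3763 and 3907 counts in WT against 2125, 1792 and 2024 in KO. Every KO library was below every WT library, and its adjusted p was the lowest of the 10 members. The level fell to 56.3% of WT, from 177 ± 7.6 to 99.5 ± 8.95 CPM (log2 fold change -0.83, SE 0.0949, edgeR adjusted p = 0.000128). The fall of Tap2 and of Tapbp was called in all 16 alternative fits. Tap1, Tap2 and Tapbp had counts that were not whole in all 6 libraries.

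The immunoproteasome subunits replace the catalytic subunits of the standard proteasome. Psmb9 (also LMP2), at chr17:34181987-34187764 on the minus strand, had 270, 340 and 374 counts in WT against 159, 130 and 239 in KO. All KO libraries were lower, although KO replicate 3, at 11.9 CPM, came near WT replicate 1, at 12.4. The log2 fold change was -0.79 (SE 0.23, edgeR adjusted p = 0.016), and the call was lost without WT replicate 3 (adjusted p = 0.0581) or without KO replicate 1 (adjusted p = 0.0544).

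Psmb8 (also LMP7), at chr17:34197721-34201454 on the plus strand, had 768, 824 and 1111 counts in WT against 559, 615 and 839 in KO. KO replicate 3 lay within the range of the WT libraries. The log2 fold change of -0.32 did not pass the test (SE 0.191, edgeR adjusted p = 0.175), but it did under a correction that removes any trend of a library's counts with gene length (-0.63, adjusted p = 0.0139). Psmb10 (also MECL1), at chr8:105935735-105938444 on the minus strand and so outside the MHC, had 350, 366 and 400 counts in WT against 291, 305 and 403 in KO. KO replicate 3 was the highest of all 6 libraries in normalized counts and the other KO libraries the lowest. Its log2 fold change was -0.05 (SE 0.145, edgeR adjusted p = 0.77).

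The constitutive subunits that these replace were higher in KO. Psmb5, the partner of Psmb8, was at 50.9 ± 2.51 CPM in WT and 83.3 ± 7.22 in KO (log2 fold change 0.71, edgeR adjusted p = 0.000299). Psmb6, the partner of Psmb9, rose by 0.55 and Psmb7, the partner of Psmb10, by 0.61. These 3 calls did not hold under the correction for gene length, where the log2 fold changes were 0.20, 0.14 and 0.14.

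Within each library, Psmb8 made up 33.8%, 34.8% and 40.9% of the FPKM of the pair Psmb8 and Psmb5 in WT, and 20.7%, 19.3% and 26.2% in KO. Psmb9 made up 19.0%, 22.7% and 22.2% of its pair with Psmb6 in WT and 9.72%, 7.09% and 12.4% in KO. Psmb10 made up 16.5%, 16.3% and 16.9% of its pair with Psmb7 in WT and 10.8%, 9.64% and 12.8% in KO. In each pair every KO library lay below every WT library, so the immunoproteasome part of the pair was smaller in KO for all 3 subunits, also for the pair of Psmb10, whose own level did not pass the test. The differences of the log2 ratio were -1.03, -1.36 and -0.69 (two-sided exact permutation p = 0.1 for each, adjusted over 5 ratios 0.1).

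**Figure D3:**
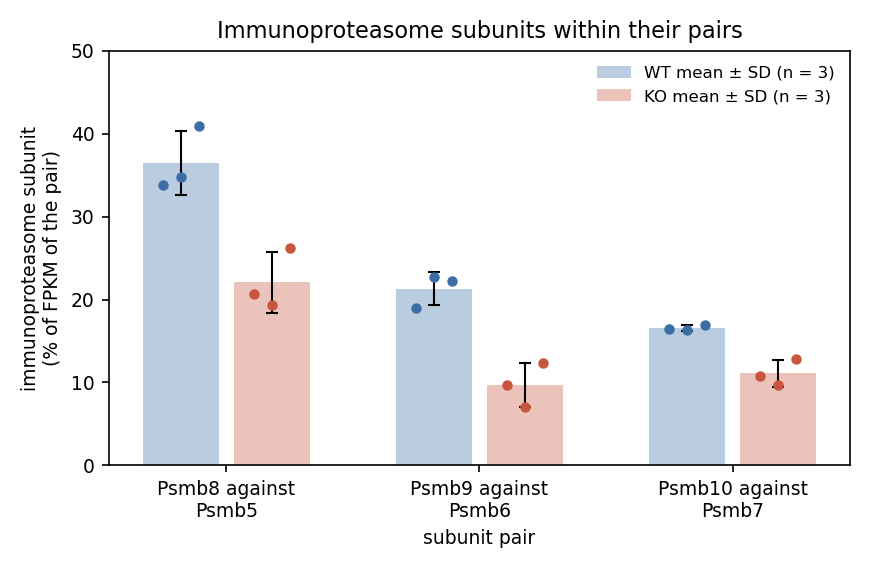
Share of the immunoproteasome subunit in the FPKM of its pair with the constitutive subunit (%), per library (points) and as mean ± SD (bars, n = 3), WT in blue and KO in red. The means were 36.5% and 22.1% for Psmb8, 21.3% and 9.72% for Psmb9, and 16.6% and 11.1% for Psmb10.

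Nlrc5, at chr8:94434356-94527272 on the plus strand, encodes the transactivator of class I genes. It had 15, 58 and 11 counts in WT against 189, 135 and 300 in KO, all whole. Every KO library was above every WT library, and WT replicate 2 stood apart from the other WT libraries. The level was 1.30 ± 1.21 CPM in WT and 10.4 ± 4.16 in KO, which is a log2 fold change of 3.0 (SE 0.553, edgeR adjusted p = 0.0017). Without WT replicate 2 the log2 fold change was 4.10, the highest of the 16 alternatives, and on log2(FPKM + 1), a scale that compresses low genes, it was 0.99. The level stayed low in both groups, at 0.183 and 1.38 FPKM.

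Per length, the members were ordered in WT from H2-D1 (201 FPKM) and H2-K1 (125) through B2m (66.3) and Tapbp (66.1) to Psmb8 (35.9), Tap2 (28.4), Tap1 (24.9), Psmb9 (19.5), Psmb10 (14.2) and Nlrc5. The ranges of the 3 WT libraries overlapped between the neighbours B2m and Tapbp, Tap2 and Tap1, and Tap1 and Psmb9, and between no other neighbours. In KO the order began with H2-D1 (211), B2m (202) and H2-K1 (165), each overlapping the next, and B2m had parted from Tapbp (34.7). Psmb8 (26.9) came next, overlapping Tapbp, and then Tap1 (17.0), Tap2 (15.8), Psmb10 (12.5) and Psmb9 (10.6), each overlapping the next.

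Within a group, the same libraries tended to be high or low for most members. KO replicate 3 was the highest KO library for 8 of 10 members and KO replicate 2 the lowest for 8. In WT, replicate 3 was the highest for 7 and replicate 1 the lowest for 9. The exceptions were Tap2 and Tapbp, highest in KO replicate 1, Psmb8 and Psmb10, lowest in KO replicate 1, B2m, Tap1 and Nlrc5, highest in WT replicate 2, and Nlrc5, lowest in WT replicate 3.

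Most markers of other cell types also differed between the groups. Of 13 leukocyte markers tested, 11 were higher in KO, against 31.8% of all tested genes. Among these 11 was Ptprc (CD45), with 13, 5 and 8 counts in WT against 105, 87 and 123 in KO. The summed level of the 17 listed leukocyte genes was 272 to 349 CPM in WT and 285 to 364 in KO, so the groups overlapped. Its most abundant gene, Itgam, was itself lower in KO, at 266 ± 37.9 CPM in WT and 175 ± 33.7 in KO (log2 fold change -0.60, edgeR adjusted p = 0.0113), and the next, Cd68, was at 29.6 ± 3.24 and 31.5 ± 5.69 CPM (log2 fold change 0.09, adjusted p = 0.627). Without these 2 genes, left out after their values had been seen, the sum was 12.3, 6.59 and 13.5 CPM in WT and 115, 80.9 and 125 in KO. Most of this reduced sum was Cd74, the invariant chain of MHC class II. Cd74 alone was at 8.89, 4.61 and 10.5 CPM in WT and 77.9, 40.8 and 74.1 in KO. The 9 stroma and vessel markers summed to 13.3, 13.8 and 17.1 CPM in WT and 20.4, 15.8 and 25.3 in KO, which overlapped, with 5 of the 6 tested higher and Pdgfra lower, at 9.23% of WT (log2 fold change -3.43, adjusted p = 4.7e-06). Without Pdgfra, left out after its values had been seen, the sum was 0.733, 2.88 and 1.48 CPM in WT and 19.2, 14.3 and 24.2 in KO. In WT, 8 of the 17 leukocyte markers were at 3 counts or fewer in every library. WT replicate 2, the WT library with most Nlrc5, had the lowest leukocyte sum of the WT libraries with and without Itgam and Cd68, and the highest stroma and vessel sum only without Pdgfra. The part of these cells in the levels of H2-K1, B2m and Nlrc5 was not tested. Their part in the levels of the members that fell was not tested either.

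The genes whose pattern over the 6 libraries was nearest to that of each of 2 members were found by the root mean square difference of centred log2 CPM. Only tested genes outside the lists used here were searched, so no member, cell type marker or other listed gene could be returned. For H2-K1 they were Rnf19a (0.0321), Rilpl1 (0.0442) and Snx6 (0.0496). For Nlrc5 they were Casp4 (0.209), Apobr (0.249) and Sulf2 (0.275). Casp4, for example, had 6, 26 and 5 counts in WT against 86, 84 and 117 in KO, with WT replicate 2 high as in Nlrc5.

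The partners of peptide loading were mixed, as were all tested genes, of which 31.8% rose and 30.2% fell. Of 7 listed genes, 3 rose, 1 fell and 3 did not pass the test, with a median log2 fold change of -0.02. Those that rose were chaperones of general glycoprotein folding: Calr (calreticulin, 0.61, edgeR adjusted p = 0.00454), Canx (calnexin, 0.57, adjusted p = 0.00697) and Pdia3 (ERp57, 0.45, adjusted p = 0.0163). Pdia3 lost its call without WT replicate 1, WT replicate 3 or KO replicate 3. Uggt1, the glucose transferase that returns misfolded glycoproteins to calreticulin and calnexin, fell by 0.71 (adjusted p = 0.000287). Erap1, the peptidase that trims peptides for class I, was at 43.0 ± 6.03 CPM in WT and 42.3 ± 5.8 in KO (log2 fold change -0.02, adjusted p = 0.9).

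Among 9 further proteasome genes, 5 rose, 1 fell and 3 did not pass, with a median of 0.38. These counts are to be read against 31.8% higher and 30.2% lower of all tested genes. Pomp, the assembly factor of the proteasome core, rose by 0.78 (edgeR adjusted p = 0.000256), but by 0.16, and no longer called, under the correction for gene length. Psme4, the PA200 activator, rose by 0.38. Psme1, a subunit of the interferon-inducible PA28 activator, fell by 0.62 (adjusted p = 0.000988). Its partner Psme2 was at 110 ± 13.7 CPM in WT and 92.3 ± 13.9 in KO (log2 fold change -0.26, adjusted p = 0.127). Psme2 was called lower in 6 of the 16 alternative fits, and its log2 fold change lay between -0.75 and -0.14 in them.

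Of 27 other class I heavy chain genes listed, 21 were rows of the table and 13 passed the filter on low counts. 2 rose, 2 fell and 9 did not pass the test, and the median was 0.19. Over all tested genes, 62% were called. Mr1, which presents vitamin B metabolites to MAIT cells, fell from 2686, 2563 and 2598 counts in the WT libraries to 753, 801 and 961 in the KO libraries, 34.5% of WT (log2 fold change -1.53, edgeR adjusted p = 8.3e-06). It fell more than any of the 10 members. Cd1d1, which presents lipids to NKT cells, had 0, 3 and 0 counts in WT against 25, 29 and 22 in KO. The mean of the KO libraries was 8.44-fold a floor of 3 counts in a library.

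H2-Q7, a nonclassical gene of the Qa-2 family, had 0, 3 and 7 counts in WT against 55, 40 and 89 in KO (log2 fold change 4.25, edgeR adjusted p = 0.00061, and 5.37 without WT replicate 3). It shares reads with near-identical neighbours, and H2-Q6 to H2-Q9 summed to 13, 22 and 19 counts in WT against 117, 59 and 121 in KO. The summed genes were therefore also higher in every KO library, by 5.93-fold. H2-Q2 had 16, 30 and 17 counts in WT against 8, 10 and 7 in KO, and its fall of 1.21 on the log2 scale (adjusted p = 0.023) lost its call without WT replicate 2, KO replicate 1 or KO replicate 3 and with DESeq2. H2-T23, which encodes the ligand Qa-1 of the NKG2A receptor, was at 63.5 ± 6.91 and 72.4 ± 7.24 CPM (log2 fold change 0.19, adjusted p = 0.176). The H2-T23 row, like that of H2-K1, spans more than 1 Mb, and it is not placed on the main chromosome sequence.

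The factors that bind class I promoters and recruit NLRC5, listed with Ciita, gave 2 higher, 3 lower and 4 not called of 9, with a median of -0.11. The shares over all tested genes were 31.8% higher and 30.2% lower. Rfx5, the DNA-binding part of the RFX complex, had 925, 814 and 998 counts in WT against 467, 546 and 421 in KO (log2 fold change -0.82, edgeR adjusted p = 0.000733). Nfya, a subunit of NF-Y, fell by 0.74 (adjusted p = 0.000672), and Nfyc, another of its subunits, rose by 0.73 (adjusted p = 0.00025). Atf1 fell by 0.24 with an adjusted p of 0.0491 and lost its call in 10 of the 16 alternatives. Ciita, the counterpart of Nlrc5 for MHC class II, had 2, 2 and 5 counts in WT against 29, 14 and 33 in KO (log2 fold change 3.13, adjusted p = 0.00102).

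Interferon signalling genes were lower in KO or did not pass the test. Of 14 listed, 12 were tested, of which 9 fell, none rose and 3 did not pass, with a median of -0.92. Across all tested genes, 30.2% fell and 31.8% rose, with a median of 0.01. Irf1, a factor that binds interferon response elements, had 5875, 4780 and 6068 counts in WT against 2070, 2612 and 3204 in KO (log2 fold change -0.98, edgeR adjusted p = 0.00105). Stat2, Tyk2 and Jak1, which act in the type I interferon receptor's signal, fell by 1.53, 1.36 and 0.92. Ifng had 0 counts in each library but KO replicate 3, where it had 1, and a count of 0 allows up to 0.144 to 0.149 CPM. Ifnb1 was not analysed here.

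**Figure D4:**
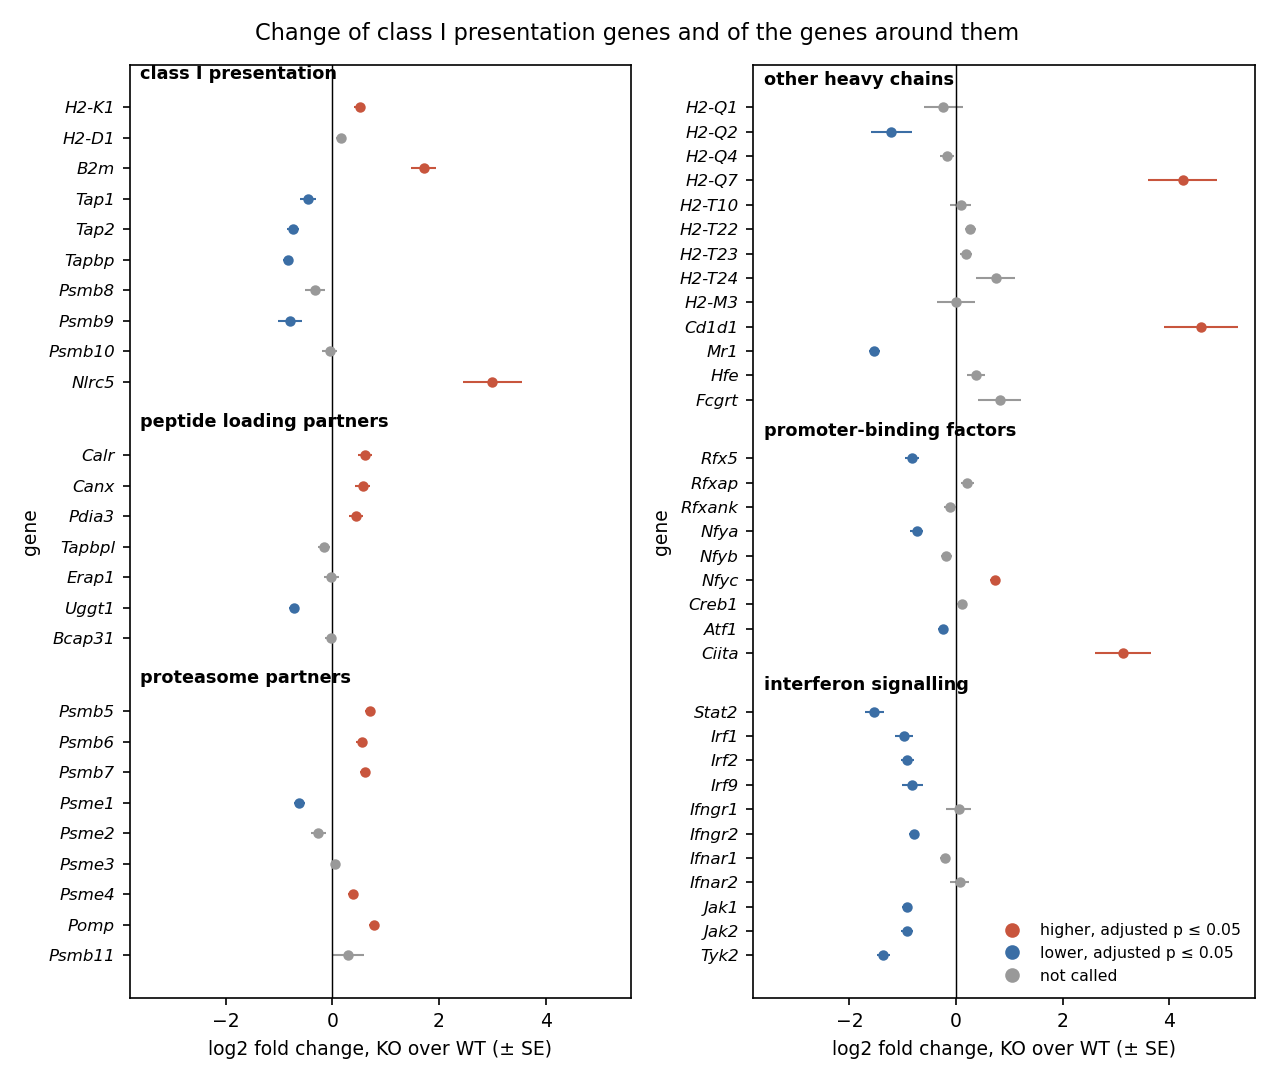
Log2 fold change of KO over WT (± SE, edgeR, n = 3 per group) for the 10 members and tested genes of the 5 lists around them (1 interferon signalling gene is not shown), coloured by call. The called interferon signalling genes that are shown lie left of 0, and the other lists hold calls on both sides.

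The direction of the 7 called members was the same in all 16 alternative fits. H2-K1, B2m, Tap2, Tapbp and Nlrc5 were called in all 16, Psmb9 in 14 and Tap1 in 11. H2-D1 and Psmb10 were called in none of the 16, and Psmb8 in 3.

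**Figure D5:**
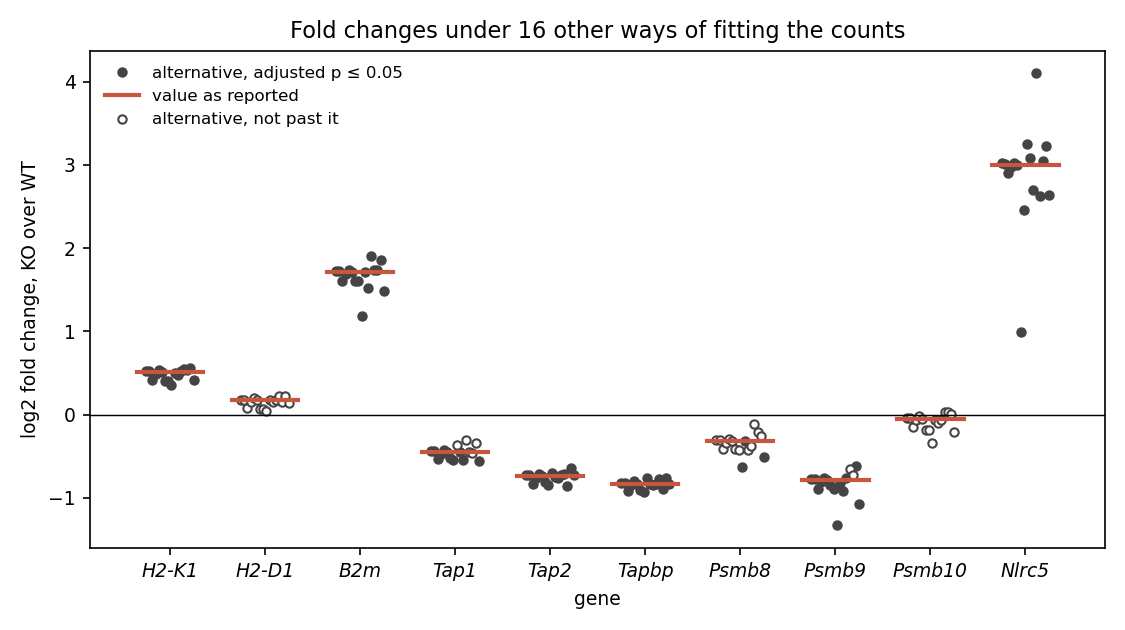
Log2 fold changes of the 10 members under 16 alternative fits (points, filled where the adjusted p was 0.05 or less), with the value as reported as a red bar. The points of H2-K1, B2m and Nlrc5 lie above 0 and those of Tap1, Tap2, Tapbp and Psmb9 below it, and those of Psmb10 lie on both sides.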

How the data were processed

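Total RNA of separated corneal epithelium was sequenced in 6 libraries, 3 per genotype, from independent biological samples according to the study's methods. The authors filtered reads with SOAPnuke 1.5.2, aligned them with Bowtie2 2.2.5 and estimated gene levels with RSEM 1.2.12. The labels name the build mm9, while the coordinates in the table are those of GRCm38. Methods and labels differ on the library kit, and strandedness is not given in the sources used here. The deposited table gives estimated counts, FPKM and TPM for each library, of which TPM entered no test. It also holds the authors' means, log2 fold changes and p-values, which were not used.

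Groups came from the genotype labels. The 10 members and the lists around them were chosen with earlier results of these data known. The rounded estimated counts went into edgeR 4.0.16 under R 4.3.3 (TMM, filterByExpr, glmQLFit and glmQLFTest, genotype only, two-sided), with Benjamini-Hochberg adjustment over 13305 genes. SE was computed as the size of the log2 fold change over the root of F, and CPM are TMM-scaled. Between 34.1% and 36.1% of a library's values above 0 were not whole. Floors of 3 counts cover counting error only. Ratios were tested by two-sided exact permutation (scipy 1.17.1). Gene positions came from GENCODE M21, matched by Ensembl identifier, and promoters from RefSeq, where Tap2 and Nlrc5 had no entry. Genes named besides the members were 9 set by name and, from each list, up to 5 called genes with the largest change and a mean count of at least 20, plus 3 nearest genes for H2-K1 and Nlrc5. Erap1, Psme2, H2-T23, H2-Q6 to H2-Q9, Psme4, Ifng and Cd74 fall outside this rule and were named after their values were seen, and 1 gene of the rule is not reported here. The alternatives used RLE factors, unscaled totals, DESeq2 1.42.0, robust dispersion, all genes without a filter, genes with a mean count of 50 or more, limma 3.58.1 on FPKM with a pseudocount of 1 or 0.1 before log2, a loess correction for gene length (span 0.5), the replicate number as a block, and leaving out each library. The edgeR step was tested on simulated data.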

Additional observations from a re-analysis of the deposited data

How the results depend on the processing

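Each member had 16 alternative fits. The count of members called lower was 4 and lay between 2 and 5 when 1 library was left out, with 2 without WT replicate 3 and without KO replicate 1, and the count called higher was 3 in each of these. The cause was not tested for any change below. Tap1 was at -0.36 (adjusted p = 0.0624, edgeR) under the correction for gene length and between -0.56 and -0.31 with 1 library left out. Psmb8 passed the test under the correction for gene length (-0.63, adjusted p = 0.0139) and lay between -0.51 and -0.11 with 1 library left out. With 1 library left out, Psmb9 lay between -1.07 and -0.62, and it was at -1.33 (adjusted p = 0.00105) under the correction for gene length. Psmb10 lay between -0.21 and 0.03 with 1 library left out, turning sign at 0.03 without WT replicate 3, 0.03 without KO replicate 1 and 0.01 without KO replicate 2, and it was at -0.34 (adjusted p = 0.0589) under the correction for gene length. The ratios kept their direction on counts, with a pseudocount of 0.1, with the block and with 1 library left out, and the correction for gene length was not run on them. The 47 other named genes had 744 alternative values, of which 715 kept direction and side of the threshold and 29 kept direction only.

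The replicate numbers are counts within each genotype. The deviations of libraries with the same number correlated at 0.034, -0.01 and 0.061, and those with different numbers at -0.159 to 0.123. No pairing by number shows in these values, but they cannot exclude a weak pairing. With the replicate number as a block, 3 members were called higher and 5 lower, Psmb8 being added at -0.32 (adjusted p = 0.021), and no member was lost. For the ratios, 3 pairs cannot go below p = 0.25 in an exact test.

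Nlrc5 rests on 11 to 58 counts in WT, and the SE of a heavy chain gene does not cover how RSEM divides its reads. 3 libraries per group leave small differences, such as that of H2-D1, undecided.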

Other observations

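H2-M2, a class I gene of the MHC's M region, had too few counts for the test, with 2, 0 and 1 in the WT libraries and 12, 4 and 20 in the KO libraries. The mean of the KO libraries was 4.0-fold a floor of 3 counts, while KO replicate 2 was close to that floor. H2-M2 was named after its values were seen. Among all genes of the table by FPKM, B2m stood at percentile 94.5 in WT and 98.0 in KO, Tapbp at 94.5 and 89.1, and Nlrc5 at 29.3 and 39.8. Cd74, the invariant chain of MHC class II, had 194, 99 and 221 counts in WT against 1538, 813 and 1487 in KO (log2 fold change 3.01, edgeR adjusted p = 0.000109), so WT replicate 2 and KO replicate 2 were the lowest of their groups.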
